A study of Mus musculus with 6 samples.

Results

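The mouse lncRNA array used here, version 2.0 of the Arraystar design, carries 1217 probes whose names begin with humanlincRNA, and all of them were chosen by that name alone from the 59709 probes of the array that are not controls. The name ends in a plus or a minus sign before P1, and 608 probes carry a plus and 609 a minus. They cover 609 numbers, of which 608 have a probe of each sign, and only humanlincRNA2126-_P1 has no partner. A number is called a region below and its signs are called strands. Which genome strand a sign refers to is not given in the sources used here, and the names give neither a transcript nor a gene. Neither the probe sequences nor their genome positions were analysed here. Each probe was printed as a single spot.

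Long intergenic non-coding RNAs (lincRNAs) are transcripts that lie between protein-coding genes and are not translated. Many are present at low levels and in few cell types, and their sequences change faster in evolution than those of messenger RNAs, although the position and the promoter of a lincRNA can be shared between human and mouse. The prefix of these names points to mouse counterparts of lincRNAs known from human, and the sign is read here only as a label. Some lincRNAs act in the nucleus on chromatin or as scaffolds for proteins, while for most no function is known.

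All biopsies came from hearts of mice listed in the records as C56BL7, female and 12 months old, whereas the study's methods name male and female animals of the C57BL6 strain. Mice 004 and 008 underwent ischemic preconditioning (IPC), in which the left coronary artery is closed and reopened in 4 cycles. The records give 4 min for each closure and each reopening and the methods give 5 min, followed in both by 30 min of reperfusion. From each IPC mouse the area at risk (AAR), the tissue beside the ligature that the artery supplies, and the remote myocardium (RM), taken from the right ventricle, were hybridized to an array each. AAR biopsies of mice 012 and 013, which were sham operated, gave the other 2 arrays, so each of the 3 groups had 2 arrays. IPC AAR and IPC RM therefore differ in chamber as well as in ischemia. The 4 IPC arrays shared slide 1, and slide 2 held those of the sham mice, so that slide and IPC cannot be told apart in any comparison with sham. Of 20 marker genes of heart chambers and other cell types, 0 had a probe that the files name, and the tissue could not be checked against them. A biopsy mixes cell types, and fewer cells of a type and less RNA per cell cannot be told apart.

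A smaller share of the humanlincRNA probes than of all probes gave a signal. Feature Extraction marks a spot as well above background when it clears the local background by a set margin. By that flag, 552 (45.4%) of the 1217 probes were detected in the AAR of mouse 004 and 575 (47.2%) in that of mouse 008. The RM of these mice gave 654 (53.7%) and 692 (56.9%). For sham AAR the counts were 416 (34.2%) in mouse 012 and 545 (44.8%) in mouse 013. Over all probes of the array the shares ran from 61% in sham mouse 012 to 80.5% in the RM of mouse 008. In both sets the RM arrays were highest and sham mouse 012 was lowest.

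The array's negative controls had the same highest and lowest arrays. They are 20 probes of 60 spots each, and 21.8% and 24.4% of their spots passed the flag on the AAR arrays, 30.4% and 36.2% on the RM arrays, and 13.1% and 24.9% on the sham arrays. The brightest of them, MM9NEGATIVE020, had a median processed signal of 72.7 and 72.4 in the AAR, 98 and 99.8 in the RM and 59 and 55.8 in sham AAR. Counted above that level in place of the flag, a rule chosen after the data were seen, 239 and 221 humanlincRNA probes were detected in the AAR, 215 and 234 in the RM and 217 and 221 in the sham AAR. By this rule the groups overlapped, so that the larger number of probes detected in the RM by the flag was not seen.

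**Figure D1:**
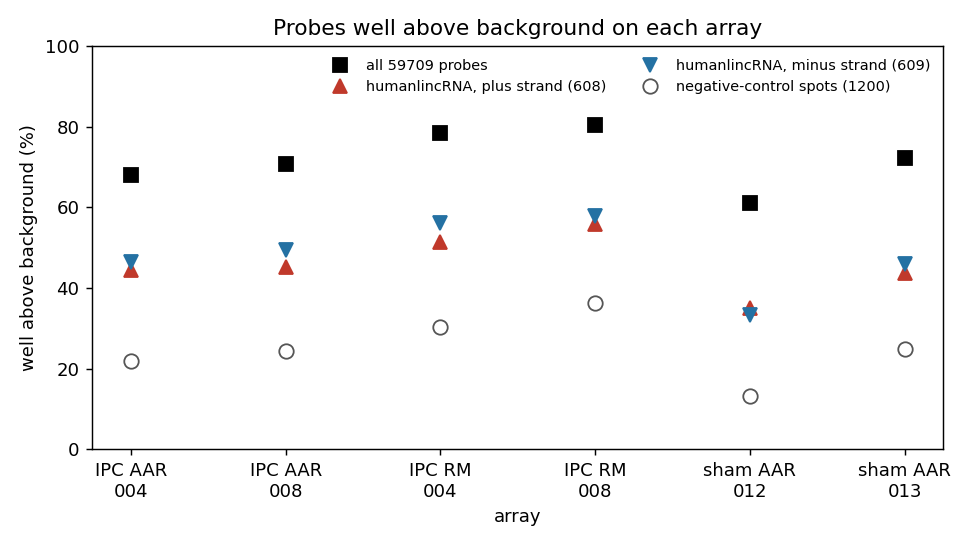
Percentage of probes marked as well above background (vertical axis) on each of the 6 arrays (horizontal axis), for all 59709 probes, the 608 plus-strand and 609 minus-strand humanlincRNA probes, and the 1200 spots of the negative-control probes. All 4 sets are highest in the IPC RM and lowest in sham mouse 012, and the humanlincRNA probes lie below all probes on every array.

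By the flag, 385 humanlincRNA probes (31.6%) were detected on all 6 arrays and 436 (35.8%) on none. The corresponding shares of all probes were 57.9% and 15.2%. Above the brightest negative control on all 6 arrays were 173 humanlincRNA probes (14.2%) and 37% of all probes. Signal from a humanlincRNA name was therefore mostly dim or variable between arrays, and a set of 173 probes stood clear of the controls throughout.

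Detection was often by the probe of a single strand of a region. Each strand had a single probe, and probes differ in how well they bind. These counts therefore cannot tell a difference between strands from a difference between probes. In the IPC AAR both strands were well above background on both arrays in 107 regions, the plus strand alone in 138 and the minus strand alone in 150. In the IPC RM these counts were 163, 140 and 158, and in sham 77, 123 and 118. On single arrays 203 to 352 minus probes and 213 to 340 plus probes were well above background. Of the 608 regions with both strands, 72 had both strands detected on all 6 arrays, and 83 had neither strand detected on any. The plus strand was detected on all 6 arrays and the minus strand on none in 62 regions, and the reverse held in 66. Above the brightest negative control, 19 regions had both strands on all 6 arrays. By this rule 67 regions had the plus strand on all 6 arrays with the minus strand on none, and 47 had the opposite.

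Values below are log2 processed signals after quantile normalization over the 6 arrays, and 1 unit is a 2-fold difference in intensity. Probes differ in how well they bind, so levels were compared between samples and not between probes. Among the 385 probes detected on all 6 arrays, the values of the mice of a group differed by a median of 0.15 in the AAR, 0.19 in the RM and 0.44 in the sham AAR. A difference above 2-fold between mice of a group was seen for 15 probes (3.9%) in the AAR, 5 (1.3%) in the RM and 31 (8.05%) in the sham AAR. The sham mice thus differed most from each other, as they also did over all probes, of which 7.64% differed above 2-fold.

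The first comparison asked how the tissue made ischemic differed from remote tissue of the same hearts. Testing required that either group compared had the probe well above background on both of its arrays, and a call required an adjusted p under 0.05 in limma as well as a fold change over 2. In IPC AAR against IPC RM, 634 humanlincRNA probes were tested and 34 were called. Of these, 24 (3.79% of those tested) were higher in the AAR, against 7.29% of all 46232 probes tested, and 10 (1.58%) were lower, against 13.3% of all. The share called was thus below that of the array in both directions. The median log2 fold change was 0.36 over the tested humanlincRNA probes and 0.20 over all tested probes.

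The size of the median difference varied with signal level, and its sign was positive at every level. The 4 negative-control probes that were well above background on all 4 IPC arrays, placed on the normalized scale through each array's own relation between signal and normalized value, were 0.25, 0.33, 0.38 and 0.66 higher in the AAR. Tested humanlincRNA probes with a mean below 5 had a median log2 fold change of 0.28, those from 5 to 7 of 0.39, those from 7 to 9 of 0.41, and the 35 probes at 9 and over of 0.14. All tested probes in the same ranges had medians of 0.08, 0.28, 0.31 and 0.14. The part of background in this positive sign was not tested. With normexp background correction, which damps differences between dim spots, 4 probes were called higher and 2 lower (0.631% and 0.315%, against 3.13% and 7.73% of all probes). In 7 of the 24 probes called higher and 3 of the 10 called lower, both arrays of the brighter group lay above the brightest negative control.

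**Figure D2:**
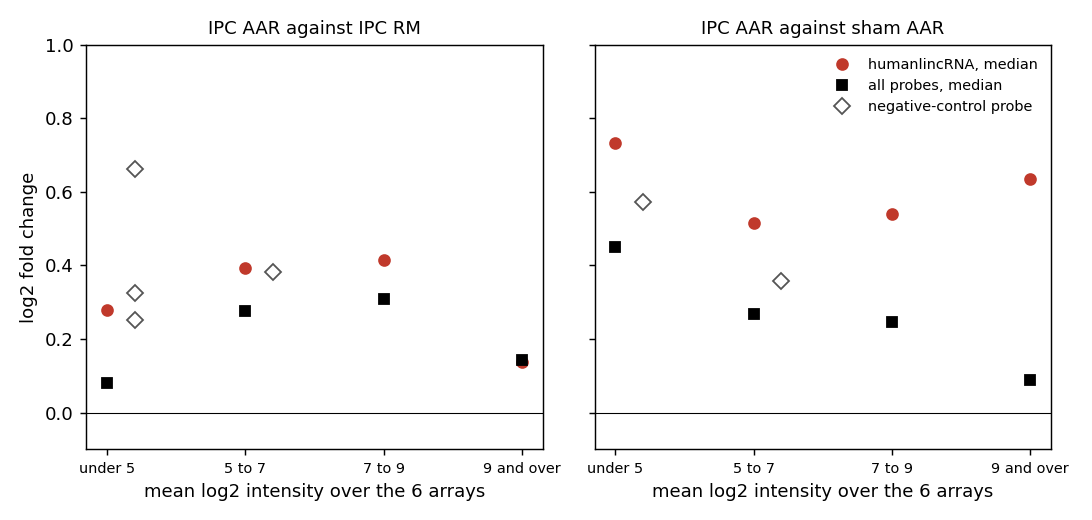
Log2 fold change (vertical axis) of IPC AAR against IPC RM and against sham AAR, by mean log2 intensity over the 6 arrays (horizontal axis). Circles are medians of the tested humanlincRNA probes, squares medians of all tested probes, and diamonds single negative-control probes well above background on all 4 arrays compared. All points lie above 0, the negative controls included.

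The largest increase in the AAR was that of humanlincRNA0115+_P1. Its normalized log2 intensity was 7.55 and 7.54 in the AAR (mouse 004 first, as throughout), 3.44 and 2.89 in the RM, and 3.55 and 3.55 in the sham AAR. Before normalization its processed signals were 156 and 148 in the AAR, 14.7 and 11.9 in the RM and 7.94 and 11.5 in sham AAR. Only the AAR of the IPC mice lay above the brightest negative control, and the sham spots were not well above background. The log2 fold change against RM was 4.38 (SE 0.22, n = 2 per group, adjusted p = 0.00196 in limma), or 20.9-fold. Against sham AAR the probe was at least 11.1-fold higher (adjusted p = 0.014 in limma). Such a bound sets the mean of the brighter group against the lowest signal that counted as well above background on each array of the dimmer group, or the probe's own signal where that was higher. Bounds were computed only on the deposited background-corrected signals, and other background corrections can give smaller differences. Over the alternatives run, the log2 fold change of this probe against sham AAR went from 1.68 to 4.03. The call against RM held under all 13 alternatives that gave a value, with log2 fold changes from 1.72 under normexp to 4.65. The probe entered the test against sham only through the IPC AAR, so the adjusted p of that test lends the difference no support. The call against sham was lost when the AAR array of mouse 004 or that of mouse 008 was left out. It was also lost without a filter on dim probes (adjusted p = 0.0702 in limma).

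The minus strand of the same region was not called. humanlincRNA0115-_P1 measured 6.84 and 6.90 in the AAR, 6.59 and 6.66 in the RM, and 6.46 and 6.12 in the sham AAR. Its log2 fold change was 0.25 against RM (adjusted p = 0.077) and 0.58 against sham AAR (adjusted p = 0.119). The probe was detected on all 6 arrays, and the groups did not overlap, with the AAR highest.

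The other probes named by the rule for increases in the AAR, which takes at most 10 detected on all 4 arrays, were changed by 2.18-fold to 5.37-fold. humanlincRNA0635+_P1 measured 5.86 and 6.06 in the AAR, 3.75 and 3.32 in the RM, and 5.28 and 6.0 in the sham AAR. Its log2 fold change against RM was 2.42 (SE 0.19, adjusted p = 0.00425), and against sham AAR it was 0.32 (adjusted p = 0.467). The RM values of this probe lay below those of both AAR groups, which overlapped, but RM against sham AAR was not called (adjusted p = 0.18 in limma). humanlincRNA1193-_P1 also had the RM lowest, at 6.09 and 6.19 in the AAR, 4.23 and 4.80 in the RM and 5.75 and 5.35 in the sham AAR, and a log2 fold change of 1.63 against RM (SE 0.23, adjusted p = 0.0133). In both probes the AAR signals, 49.8 and 53.7 and then 57.9 and 58.5, were below the brightest negative control, and under normexp the log2 fold changes against RM were 0.76 and 0.68, below the fold threshold.

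A further 5 probes of this group were lower in the RM than in either AAR group. humanlincRNA1543-_P1 measured 9.08 and 9.11 in the AAR, 7.56 and 7.59 in the RM, and 8.94 and 8.50 in the sham AAR. humanlincRNA2333-_P1 measured 8.45 and 8.49 in the AAR, 7.09 and 7.07 in the RM, and 8.10 and 8.25 in the sham AAR. humanlincRNA1256+_P1 measured 9.52 and 9.42 in the AAR, 8.18 and 8.22 in the RM, and 9.29 and 8.88 in the sham AAR. In all 3 the RM lay below every AAR array, sham included, and the mice of each IPC group differed little. Their log2 fold changes against RM were 1.52 (SE 0.07), 1.39 (SE 0.07) and 1.27 (SE 0.08), with adjusted p of 0.00182, 0.00215 and 0.00299. humanlincRNA1812-_P1 measured 8.89 and 8.71 in the AAR, 7.45 and 7.63 in the RM, and 8.02 and 7.65 in the sham AAR, a log2 fold change of 1.26 against RM (SE 0.12, adjusted p = 0.00599). humanlincRNA2017-_P1, whose spots were dimmer than the brightest negative control in both IPC groups, measured 6.0 and 6.17 in the AAR, 4.89 and 5.03 in the RM, and 5.57 and 6.33 in the sham AAR, a log2 fold change of 1.12 (SE 0.11, adjusted p = 0.00609). Under normexp the values against RM of these last 2 probes were 0.998 and 0.46, below the threshold. None of the 5 was called in IPC AAR against sham AAR, where their log2 fold changes were 0.14 to 0.96 and their adjusted p 0.0655 to 0.757. RM against sham AAR was not called in any of them either. There the log2 fold changes were -1.14 to -0.30 and the adjusted p 0.174 to 0.504 in limma.

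In a further pair the AAR of the IPC mice stood above both other groups. humanlincRNA1563+_P1 measured 6.65 and 6.32 in the AAR, 4.74 and 4.57 in the RM, and 4.31 and 4.35 in the sham AAR. Its log2 fold change was 1.83 against RM (SE 0.16, adjusted p = 0.00507) and 2.15 against sham AAR (SE 0.18, adjusted p = 0.0201), where the spot of mouse 012 was not well above background and that of mouse 013 was. The probe entered the test against sham only through the IPC AAR, so that adjusted p lends the difference no support. humanlincRNA2350-_P1 measured 5.98 and 5.93 in the AAR, 4.35 and 4.03 in the RM, and 4.00 and 2.90 in the sham AAR, where it was not well above background. It was higher than RM by 1.77 on the log2 scale (SE 0.14, adjusted p = 0.00428) and at least 3.74-fold higher than sham AAR (adjusted p = 0.0466). Both probes were dim, with processed signals of 84.6 and 63.8 and of 54 and 49.2 in the AAR. Under normexp their log2 fold changes against RM were 0.72 and 0.63, below the fold threshold. Against sham AAR their smallest log2 fold changes over the alternatives run were 0.77 and 0.70, also below that threshold. For humanlincRNA2350-_P1 this was smaller than the bound given. The plus strand of region 2350 measured 6.86 and 6.97 in the AAR, 6.46 and 6.58 in the RM, and 6.31 and 6.02 in the sham AAR, and was called in neither comparison. The comparisons with RM and with sham share the AAR arrays, so a high AAR value enters both.

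**Figure D3:**
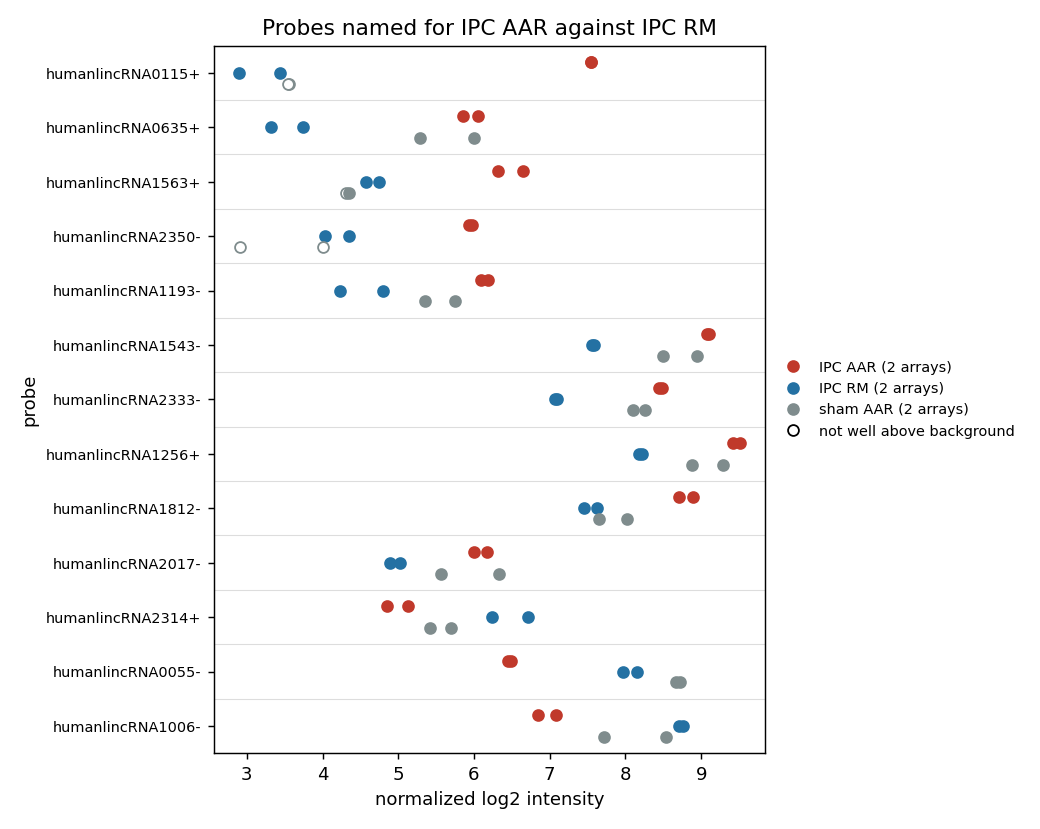
Normalized log2 intensity (horizontal axis) of the 13 probes named for IPC AAR against IPC RM (vertical axis), with 1 point per array. Filled points were well above background and open points were not. In 10 probes both AAR arrays lie above both RM arrays and in 3 below them, and the sham points fall on either side.

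The decreases in the AAR that passed on all 4 arrays were 3. humanlincRNA1006-_P1 measured 6.84 and 7.09 in the AAR, 8.77 and 8.71 in the RM, and 7.72 and 8.53 in the sham AAR, and fell by 1.77 on the log2 scale against RM (SE 0.12, adjusted p = 0.00321). Its processed signals were 96.8 and 108 in the AAR and 634 and 620 in the RM. humanlincRNA0055-_P1 measured 6.49 and 6.45 in the AAR, 8.16 and 7.97 in the RM, and 8.66 and 8.72 in the sham AAR. Its AAR arrays lay below every other array, and it was lower by a log2 fold change of -1.59 against RM (SE 0.10, adjusted p = 0.00299) and of -2.22 against sham AAR (SE 0.14, adjusted p = 0.0164). humanlincRNA2314+_P1 measured 5.13 and 4.85 in the AAR, 6.24 and 6.71 in the RM, and 5.42 and 5.69 in the sham AAR, a log2 fold change of -1.48 against RM (SE 0.22, adjusted p = 0.0149) that was -0.69 under normexp. Only humanlincRNA0055-_P1 among the 3 was called lower against sham as well, and the sham value of humanlincRNA1006-_P1 spread by more than its AAR values (log2 fold change of -1.16, adjusted p = 0.102).

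Leaving out an array moved the number of calls among these probes and over the whole array. Without the RM array of mouse 004 there were 6 called higher and 13 lower (0.858% and 1.86% of those tested, against 1.75% and 6.05% of all probes). Without that of mouse 008 there were 7 and 8 (1.06% and 1.21%, against 2.55% and 7.48%). Without the AAR array of mouse 004 there were 56 and 14 (8.59% and 2.15%, against 9.33% and 13.7%), and without that of mouse 008 there were 86 and 25 (13% and 3.78%, against 11.3% and 14.9%). Only in this last fit was the share called higher above that of all probes. The calls of humanlincRNA0115+_P1, humanlincRNA1543-_P1, humanlincRNA2333-_P1 and humanlincRNA0055-_P1 against RM held in each of these fits, whereas 12 of the 19 named probes called here lost their call without the RM array of mouse 004 and 11 without that of mouse 008, humanlincRNA1563+_P1 and humanlincRNA1006-_P1 among them in both.

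Some probes were detected in only 1 of the groups compared. They entered the test through the group in which they were detected, and some of their dim values lie at the floor of the array. The adjusted p given with their bounds therefore lends the difference no support. The same holds for humanlincRNA0115+_P1 and humanlincRNA2350-_P1 against sham AAR. Well above background on both AAR arrays and on neither RM array were 4 humanlincRNA probes (0.329% of 1217, against 0.162% of all probes). humanlincRNA2487+_P1 had the largest bound, with 4.77 and 5.56 in the AAR, 1.38 and 1.38 in the RM, and 3.39 and 1.68 in the sham AAR. It was at least 4.95-fold higher in AAR than in RM (adjusted p = 0.00459), and at least 2.16-fold higher than in sham AAR, where it was not called (adjusted p = 0.0887). Its processed signals in the AAR were 23.6 and 37.8, below the brightest negative control, and the minus strand of region 2487 was not well above background on any array.

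The other 3 probes of this kind were minus strands. humanlincRNA1655-_P1 measured 4.80 and 4.13 in the AAR, 1.60 and 1.44 in the RM, and 1.39 and 1.39 in the sham AAR, at least 3.05-fold over RM (adjusted p = 0.00561) and at least 1.33-fold over sham (adjusted p = 0.0211). Its plus strand was detected on all 6 arrays, at 5.30 and 5.24 in the AAR, 4.74 and 4.48 in the RM, and 5.15 and 4.01 in the sham AAR, and was not called. humanlincRNA2046-_P1 was at least 2.67-fold (adjusted p = 0.00657) and humanlincRNA1219-_P1 at least 2.66-fold (adjusted p = 0.0234) higher in AAR than in RM. humanlincRNA2046-_P1 was brightest in the sham AAR, at 5.86 and 4.78, against 4.30 and 4.24 in the AAR and 2.98 and 2.65 in the RM. It was the only humanlincRNA probe well above background on both sham arrays and on neither RM array (0.0822%, against 0.0536% of all), and its difference from sham in the RM was not called (adjusted p = 0.186). The processed signals of the 4 probes were 37.8 or lower in the AAR, so all 4 differences rest on spots dimmer than the brightest negative control. Under normexp the log2 fold changes against RM of humanlincRNA2487+_P1, humanlincRNA1655-_P1, humanlincRNA2046-_P1 and humanlincRNA1219-_P1 were 0.68, 0.36, 0.30 and 0.23. All 4 were below the fold threshold and smaller than the bounds given. Against sham AAR the smallest log2 fold change of humanlincRNA1655-_P1 over the alternatives run was 0.35, also smaller than its bound.

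In the other direction, 56 probes (4.6%) were well above background on both RM arrays and on neither AAR array, against 6.77% of all probes. The lowest normalized value that passed the flag was 2.98 and 2.73 on the RM arrays and 4.13 and 3.88 on the AAR arrays. A probe could thus pass in the RM alone without being brighter there. For most of the 56 the bound gave no fold difference. humanlincRNA0626-_P1 even had a higher mean in the AAR (3.79) than in the RM (3.57). The largest bounds were small, at least 2.10-fold for humanlincRNA1025-_P1 (adjusted p = 0.0118) and at least 2.03-fold for humanlincRNA0323+_P1 (adjusted p = 0.00451). humanlincRNA1025-_P1 measured 3.35 and 3.83 in the AAR, 5.05 and 5.10 in the RM, and 3.92 and 4.78 in the sham AAR. humanlincRNA0323+_P1 measured 3.97 and 3.83 in the AAR, 5.06 and 5.0 in the RM, and 1.38 and 2.12 in the sham AAR. Under normexp the log2 fold changes of humanlincRNA1025-_P1 and humanlincRNA0323+_P1 in AAR against RM were -0.42 and -0.25, below the fold threshold. Each of the other 3 with the largest bounds, humanlincRNA0878-_P1, humanlincRNA0912+_P1 and humanlincRNA1808+_P1, missed the call, with adjusted p of 0.275, 0.15 and 0.0458 and bounds of 1.39-fold, 1.31-fold and 1.16-fold. Among these the RM mice differed most in humanlincRNA0912+_P1, at 5.40 and 3.38.

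No region was called on both strands, but only 5.36% of the tested humanlincRNA probes were called. So few calls leave little room for pairs, and this count cannot tell whether the strands go together. Of the 34 regions with a call in AAR against RM, 15 were called on the plus strand and 19 on the minus strand, and 0 on both. The other strand had been tested in 17 of them, with the same sign in 7 and the opposite sign in 10. Over the 169 regions with both strands tested, 102 had fold changes of the same sign, and Pearson's r between the strands was -0.07 as a description across regions measured on the same 4 arrays. In region 1025 the minus strand was lower in the AAR (-1.48) while the plus strand had a log2 fold change of 0.99, and in region 1587 the plus strand was lower (-1.83) while the minus strand had 0.64. The difference between strands was not tested.

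**Figure D4:**
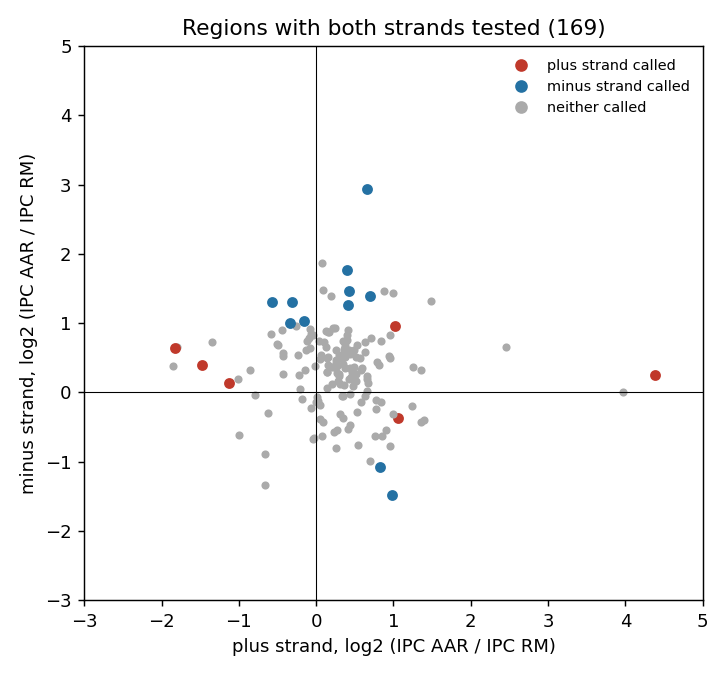
Log2 fold change of IPC AAR against IPC RM for the plus strand (horizontal axis) and the minus strand (vertical axis) of the 169 regions with both strands tested, with 1 point per region. Coloured points have a call on the strand given in the key. No region is called on both strands, and the strands show no common trend (r = -0.07).

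The second comparison set the AAR of IPC mice against that of sham mice, which were on another slide. Of 511 humanlincRNA probes tested, 24 were called. The 22 higher in IPC AAR made up 4.31%, against 2.78% of all 40161 probes tested. The 2 lower made up 0.391%, against 5.78%. Of the 386 that passed the flag on each of the 4 arrays, 9 were called higher. Over all probes it was 792 of 34583, about the same share. Refitted with the stricter filter, the shares were 3.63% and 2.95%. From below 5 to 9 and over in mean level, 12 of 141, 4 of 244, 2 of 91 and 4 of 35 were called higher. All probes had 4.71%, 2.09%, 2.82% and 2.6%, so the humanlincRNA share was larger only in the lowest and highest range. The median log2 fold change was 0.56 over the 511 humanlincRNA probes and 0.23 over all. The 2 negative controls that passed the flag on these 4 arrays were 0.57 and 0.36 higher in IPC AAR. By mean level, from below 5 to 9 and over, the medians of the humanlincRNA probes were 0.73, 0.52, 0.54 and 0.64, and those of all probes 0.45, 0.27, 0.25 and 0.09. In 9 of the 22 probes called higher and 1 of the 2 called lower, both arrays of the brighter group were above the brightest negative control. Scaling to the 75th percentile gave 36 called higher and 3 lower, or 7.05% and 0.587% against 5.45% and 6.87% of all probes. Normexp gave 11 and 1, or 2.15% and 0.196% against 1.62% and 4.45%.

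Most of the probes named here were high in both tissues of the IPC mice. humanlincRNA2246-_P1 measured 7.13 and 7.70 in the AAR, 7.04 and 7.04 in the RM, and 4.72 and 5.22 in the sham AAR. It was higher in IPC AAR than in sham AAR by 2.44 on the log2 scale (SE 0.30, adjusted p = 0.0306). humanlincRNA1883+_P1 measured 8.73 and 8.83 in the AAR, 8.67 and 8.68 in the RM, and 7.03 and 6.95 in the sham AAR (log2 fold change 1.79, SE 0.15, adjusted p = 0.0195). humanlincRNA2159-_P1 measured 11.36 and 11.25 in the AAR, 11.31 and 11.91 in the RM, and 9.94 and 9.28 in the sham AAR (log2 fold change 1.69, SE 0.27, adjusted p = 0.0448). In these 3 the 4 IPC arrays lay above both sham arrays, and the AAR and RM values overlapped or differed by less than 0.5 in their means.

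The same held for 4 further probes. humanlincRNA2397+_P1 measured 10.87 and 10.63 in the AAR, 10.90 and 11.07 in the RM, and 9.24 and 8.96 in the sham AAR. humanlincRNA2345-_P1 measured 9.84 and 9.75 in the AAR, 9.72 and 9.79 in the RM, and 8.64 and 8.16 in the sham AAR. humanlincRNA1828+_P1 measured 7.62 and 7.56 in the AAR, 7.90 and 7.73 in the RM, and 6.47 and 6.20 in the sham AAR. All 3 had every IPC array above the sham arrays, at log2 fold changes of AAR against sham of 1.65, 1.40 and 1.25 (adjusted p = 0.0284, 0.0437 and 0.0352). humanlincRNA0847-_P1 measured 11.86 and 11.73 in the AAR, 11.93 and 12.41 in the RM, and 10.75 and 10.39 in the sham AAR, a log2 fold change of 1.23 (SE 0.19, adjusted p = 0.0431). For these 7 probes the log2 fold change of RM against sham AAR was 1.36 to 2.07, with adjusted p from 0.159 to 0.186, and that of AAR against RM was -0.37 to 0.37. The 4 IPC arrays share a slide, so slide and IPC cannot be told apart here.

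Another 2 probes were highest in the AAR of the IPC mice. humanlincRNA0347+_P1 measured 6.80 and 6.57 in the AAR, 5.81 and 5.93 in the RM, and 5.23 and 5.14 in the sham AAR, a log2 fold change of 1.5 against sham AAR (SE 0.17, adjusted p = 0.0262). humanlincRNA0573+_P1 measured 5.93 and 6.11 in the AAR, 5.21 and 5.08 in the RM, and 5.06 and 4.92 in the sham AAR, a log2 fold change of 1.03 (SE 0.16, adjusted p = 0.0429). Against RM they passed the adjusted p (0.0151 and 0.0103) at fold changes of 1.76 and 1.83, below the threshold of 2. The AAR signals of humanlincRNA0573+_P1, 52.3 and 55.5, were below the brightest negative control. Over the alternatives run, the smallest log2 fold changes against sham AAR were 0.80 for humanlincRNA0347+_P1 and 0.34 for humanlincRNA0573+_P1, both below the fold threshold.

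**Figure D5:**
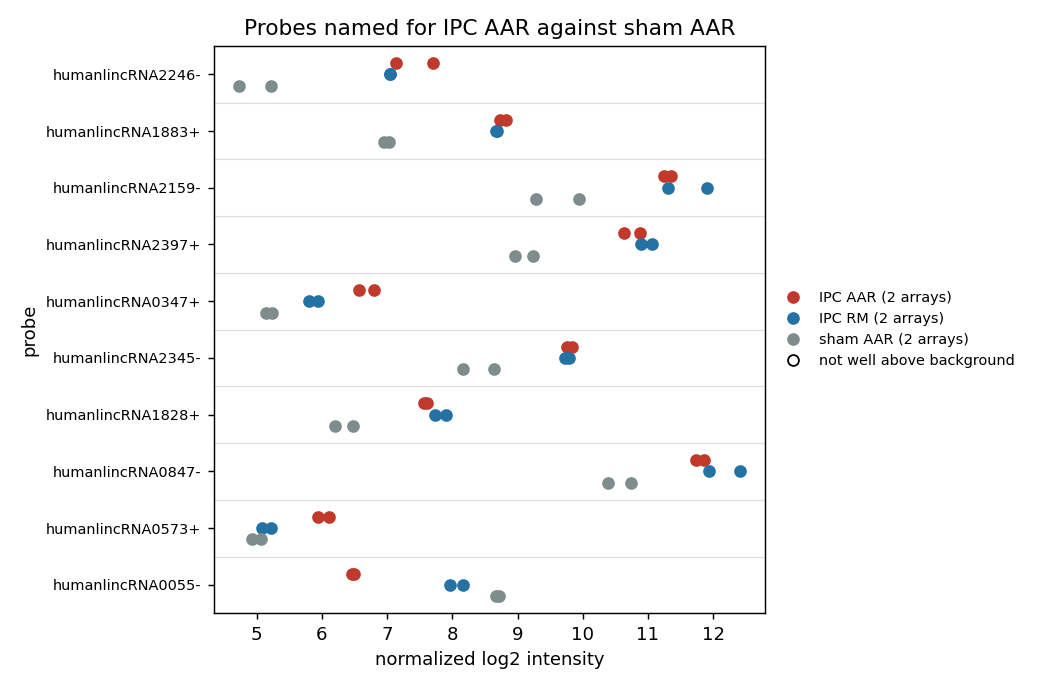
Normalized log2 intensity (horizontal axis) of probes named for IPC AAR against sham AAR (vertical axis), with 1 point per array, all well above background. In the first 9 both IPC AAR arrays lie above both sham arrays, and in 7 of these the IPC RM points lie with the IPC AAR points, while humanlincRNA0055-_P1 is lowest in the IPC AAR.

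By detection, 39 probes (3.2%) were well above background on both IPC AAR arrays and on neither sham array, against 1.78% of all probes. humanlincRNA0338-_P1 was at least 1.87-fold (adjusted p = 0.029) and humanlincRNA1948-_P1 at least 1.5-fold (adjusted p = 0.0348) higher than in sham AAR. Their AAR signals, 31 and 25 and then 20.7 and 21.3, were below the brightest negative control. Over the alternatives run, their smallest log2 fold changes against sham AAR were 0.33 and 0.25, below the fold threshold and smaller than the bounds. humanlincRNA0338-_P1 measured 5.17 and 4.94 in the AAR, 5.07 and 4.98 in the RM, and 3.59 and 3.71 in the sham AAR. Large bounds also came with mice that disagreed. humanlincRNA0430-_P1 was at 8.64 in the AAR of mouse 004 and at 4.07 in that of mouse 008, with 3.27 and 2.55 in the RM and 3.37 and 2.15 in the sham AAR. humanlincRNA0095+_P1 was at 4.22 and 6.69 in the AAR of the same mice, and neither was called (adjusted p = 0.205 and 0.0802).

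The reverse pattern, well above background on both sham arrays and on neither IPC AAR array, was found for 2 probes (0.164%, against 0.921% of all). humanlincRNA0077-_P1 measured 1.41 and 2.27 in the AAR and 4.90 and 4.70 in the sham AAR, at least 1.74-fold lower in the IPC mice (adjusted p = 0.0282). Its sham signals, 22.3 and 24.2, were below the brightest negative control. Over the alternatives run, its log2 fold change against sham AAR went from -3.39 to -0.47, the latter smaller in size than the bound. In the RM it was at 5.0 in mouse 004, where it was well above background, and at 1.73 in mouse 008, where it was not. Its plus strand was detected on all 6 arrays, at 8.65 and 8.61 in the AAR, 8.04 and 8.34 in the RM, and 8.21 and 7.72 in the sham AAR, and was not called (adjusted p = 0.127). humanlincRNA0626-_P1 measured 3.78 and 3.80 in the AAR and 6.61 and 3.90 in the sham AAR and was not called (adjusted p = 0.323).

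Of the 24 regions with a call against sham, 8 were called on the plus and 16 on the minus strand, and 0 on both. With 4.7% of the tested probes called, this count too cannot tell whether the strands go together. The other strand was tested in 11 of these regions and had the same sign in 9. In region 0847 the minus strand was higher (1.23) while the plus strand had a log2 fold change of -1.31. Here too the calls changed with the arrays included, in these probes and in all. Without the array of sham mouse 012 there were 94 called higher and 24 lower (16% and 4.08% of those tested, against 8.47% and 12% of all probes). Without that of sham mouse 013 there were 6 and 10 (1.14% and 1.89%, against 1.54% and 4.33%). Without the IPC AAR array of mouse 004 or of mouse 008, no probe of the whole array was called in either direction by limma. All probes named in this comparison lost their call without either IPC AAR array.

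The third comparison, IPC RM against sham AAR, gave 0 humanlincRNA probes called among 626 tested, in either direction, and the background was 0% higher and 0% lower of all 46061 probes tested. At an unadjusted p below 0.05 in limma there were 114 humanlincRNA probes (18.2%), against 16.4% of all probes. The methods' t-test also called 0, here and over all probes. Fitting all 6 arrays together called 5 higher (0.799%, against 0.245%). Without the array of sham mouse 012 there were 36 called higher and 42 lower (5.36% and 6.25%, against 2.96% and 4.22% of all probes). Without that of sham mouse 013 there were 57 and 30 (8.93% and 4.7%, against 10.3% and 4.45%). Well above background on both RM arrays and on neither sham array were 118 probes (9.7%, against 6.53% of all probes). Among them humanlincRNA0323+_P1 was at least 1.96-fold and humanlincRNA1948-_P1 at least 2.03-fold higher, and neither was called (adjusted p = 0.159 and 0.253). The lowest normalized value that passed the flag was 2.98 and 2.73 on the RM arrays and 4.60 and 3.51 on the sham arrays. For most of the 118 the bound gave no fold difference. humanlincRNA0115+_P1 counted among them with a lower mean in the RM (3.16) than in the sham AAR (3.55). The comparison sets right ventricle of one set of mice against the AAR of another, on another slide, and these cannot be told apart.

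The 10 probes with the highest mean level had log2 fold changes of -0.75 to 0.14 in AAR against RM, most of them negative and all below the fold threshold. humanlincRNA2438+_P1 varied least, from 12.26 to 12.48 over the 6 arrays, with 12.42 and 12.48 in the AAR, 12.36 and 12.26 in the RM, and 12.36 and 12.30 in the sham AAR. humanlincRNA2163-_P1 measured 12.55 and 12.45 in the AAR, 13.12 and 13.15 in the RM, and 12.85 and 13.03 in the sham AAR. Its AAR was the lowest of the groups, and the log2 fold change against RM of -0.64 (SE 0.08, adjusted p = 0.011) stayed below the fold threshold. Of the 10, 0 were called in AAR against RM, and humanlincRNA2163-_P1, humanlincRNA2296+_P1 and humanlincRNA2330+_P1 had an adjusted p below 0.05.

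In 8 of these 10 probes both sham arrays lay below all 4 IPC arrays, as they did in 13.9% of all probes and in 11.5% of the 11443 with a mean of 9 and over. The 10 were chosen for their mean and not for this difference, and it was not tested as a set. humanlincRNA2296+_P1 measured 12.39 and 12.11 in the AAR, 12.79 and 13.03 in the RM, and 11.23 and 10.75 in the sham AAR. humanlincRNA0318-_P1 measured 11.36 and 11.31 in the AAR, 11.38 and 12.09 in the RM, and 9.88 and 8.97 in the sham AAR, and had the widest range of the 10, 3.12. Both missed the call against sham AAR, with log2 fold changes of 1.26 and 1.91 and adjusted p of 0.0579 and 0.0553, while humanlincRNA2159-_P1 and humanlincRNA0847-_P1, given above, passed it. The remaining 4, humanlincRNA1773+_P1, humanlincRNA2330+_P1, humanlincRNA1245+_P1 and humanlincRNA0065-_P1, had log2 fold changes of 0.52 to 1.03 against sham AAR with adjusted p of 0.0786 to 0.219. Sham mouse 013 was lower than sham mouse 012 in all 8.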

How the data were processed

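Total RNA of 6 cardiac biopsies was hybridized to 1-colour Agilent arrays. The deposited intensity values are processed signals that the authors' Feature Extraction software (11.0.1.1 by the file headers) corrected for background within each array, with no normalization between arrays. Other deposited intensity columns used were the median spot and background signals, for normexp. A table of the series has 6 columns whose names match no sample record, and they were not used.

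Control spots and spots flagged as outliers were left out, spots of a probe were averaged on the log2 scale, and the 6 arrays, with 59709 probes, underwent quantile normalization with limma 3.58.1 (R 4.3.3). The authors describe quantile normalization as well. Each comparison was fitted with lmFit and eBayes on its 4 arrays, with Benjamini-Hochberg adjustment over all probes tested. Sample records gave groups and mouse numbers. The records give AAR and RM arrays of equal number to a single mouse, which pairs them, although the change from mouse 004 to 008 in AAR and that in RM correlated at only -0.09 across 46232 probes. With 2 arrays per group, p-values rest on 2 mice each, and an exact permutation test could not go below 0.333. Precision is limited by the number of arrays. The procedure was tested on simulated data.

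The probes, lists and rules were chosen with earlier results of these data known. Probes were named if they were among the 10 largest called changes in a direction that were well above background on all 4 arrays with no overlap of groups, among the 10 with the highest mean, on either strand of the 5 regions with the largest called change, among the 5 largest bounds for detection in a single group, or given as examples of the rule. Others (humanlincRNA1587+_P1 and the other strands of regions 1025, 1587 and 0847) were named after their values were seen. Slide could not be fitted as a block, since the sham arrays were alone on theirs.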

Additional observations from a re-analysis of the deposited data

How the results depend on the processing

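Of the 20 named fold changes recomputed in AAR against RM and the 20 against sham, which are the called probes that the rule names and the tested partner strands of the regions it names, none changed direction under any alternative run. Named probes that were not called, and RM against sham, were not recomputed singly. With scaling to the 75th percentile the median over all probes went from 0.20 to 0.33 (log2) in AAR against RM, with 50.5% of all calls higher in place of 35.5%, and from 0.23 to 0.33 against sham, with 44.2% in place of 32.5%. Normexp lowered these medians to 0.10 and 0.12.

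In AAR against RM, 24 probes were called higher and 10 lower. With normexp 4 were called higher and 2 lower (0.631% and 0.315% of those tested, against 3.13% and 7.73% of all probes). The count called lower was 16 with no filter on dim probes (1.32%, against 9.97%). It was 3 with a stricter filter (0.61%, against 10.1%) and 3 by the methods' t-test (0.473%, against 10.1%). Leaving out an array gave 6 to 86 higher and 8 to 25 lower. With the mouse as a replicate block (the paired fit), 27 were called higher and 7 lower (4.26% and 1.1%, against 6.88% and 12.7% of all probes). This fit shared 29 of the 34 calls, and no named probe lost its call. Of the 19 named probes called here, 13 lost the call with normexp, 1 with all 6 arrays fitted together and 4 by the methods' t-test.

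In AAR against sham, 22 were called higher and 2 lower. The count higher was 40 with all 6 arrays fitted together (7.83%, against 5.05% of all probes) and 36 with scaling to the 75th percentile (7.05%, against 5.45%). It was 14 with the stricter filter (3.63%, against 2.95%) and 11 with normexp (2.15%, against 1.62%). The count lower was 1 with the stricter filter (0.259%, against 6.07%) and 1 with normexp (0.196%, against 4.45%). By the methods' t-test 1 was called higher and 0 lower, where only 2 of all 40161 probes were called. With no filter 0 were called, also over all probes. Leaving out an array gave 0 to 94 higher and 0 to 24 lower. In RM against sham the fit of all 6 arrays gave 5 higher, and leaving out an array gave 0 to 57 higher and 0 to 42 lower. Fits that leave out an array assume that the single array left varies like the other groups. The cause of these shifts was not tested. No paired analysis was possible for the comparisons with sham, because the mice differ. Quantile normalization over the 4 arrays and outlier spots kept changed none of the calls recomputed.

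The looser flag for a positive and significant signal detected 816, 858, 911, 972, 710 and 836 humanlincRNA probes on the AAR, RM and sham arrays in turn. Signal over background limits the rest: both arrays of the brighter group were above the brightest negative control in 10 of the 34 calls against RM and 10 of the 24 against sham. Slide as a block was not run, since the sham arrays were alone on theirs.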
